A study of Mus musculus with 6 samples.

Results

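The H2 genes are the genes of the mouse major histocompatibility complex (MHC), and their transcripts were examined here in testis of mice with and without the sperm protease gene Prss55. All probes on the array that are not controls and whose gene name begins with H2- were taken as members, with no regard to their signal. This gave 39 H2 genes of 21249 genes with a symbol on the array, and 62 H2 probes of 41174 probes. Total testis RNA of 3 Prss55-/- males and 3 wt males was measured, with 1 single-dye (Cy3) array of the whole mouse genome for each mouse. The mice were 6 to 8 weeks old and of mixed 129Sv/C57BL/6 strain, and Prss55 had been disrupted in the germ line by homologous recombination, so the disruption is not limited to 1 cell type. Which H2 haplotype each animal carried is not given in the sources used here.

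Class I molecules of the MHC are heavy chains that pair with beta-2-microglobulin and show peptides made inside the cell to CD8 T cells. Class II molecules are pairs of an alpha and a beta chain that show peptides from engulfed proteins to CD4 T cells, and they are made mainly by macrophages, dendritic cells and B cells. The seminiferous tubules are a site of immune privilege in which developing germ cells carry little class I on their surface, while the interstitial space holds resident macrophages. The members were grouped by name into the K, D and L genes of class I (classical), the Q, T, M and Bl genes of class I (mostly non-classical), the A and E genes of class II (classical), the DM and O genes of class II (which help to load peptide), and Ke2 and Ke6. The last pair lies in the complex but encodes no MHC molecule, since H2-Ke2 is the prefoldin subunit gene Pfdn6 in RefSeq and H2-Ke6 encodes the steroid dehydrogenase Hsd17b8. The files hold no probe under the name H2-D1, a classical class I gene.

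Between 69.53% and 72.87% of the 43379 spots on an array were well above background, and no spot was saturated. Prss55 itself read 15.08, 14.95 and 14.93 in Prss55-/- testis and 15.87, 15.77 and 16.01 in wt testis on the normalized log2 scale, a difference of -0.90 (SE 0.0798, limma adjusted p = 0.01). Its single probe kept 53.6% of the wt signal, and whether the probe lies in the disrupted stretch was not established. In knockout testis the paper reports no Prss55 RNA by RT-PCR and no protein by Western blot or immunofluorescence. The exact two-sided permutation p for the probe was 0.1, which is the smallest that 3 arrays against 3 allow. The testis label held, with 7 of 7 germ cell markers such as Prm1, Tnp1 and Ddx4 well above background on all 6 arrays. The Prss55-/- arrays lay on 1 slide and the wt arrays on 2 others, so slide and genotype cannot be told apart. Single arrays weighed heavily on the fit: 345 of 28615 tested probes passed the adjusted threshold with all 6 arrays and between 38, with Prss55-/- replicate 3 left out, and 857, with Prss55-/- replicate 1 left out, when 1 array was dropped. Leaving out Prss55-/- replicate 2 gave 63, and dropping the first, second or last wt array gave 68, 127 and 377.

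H2 transcripts were detected in testis from each class, but unevenly. Of the 62 probes, 34 were well above background on all 6 arrays, 21 on none and 7 on some of them. By gene, 21 of 39 had a probe above background on all arrays and 14 had none above on any array. All 8 probes of the K, D and L genes were above background on every array. Of the 34 probes of the Q, T, M and Bl genes, 14 were above on every array and 14 on none. The undetected genes among them were H2-M1, H2-M9, H2-M11, H2-M10.1, H2-M10.3, H2-M10.4, H2-M10.5, H2-M10.6, H2-T18 and H2-T24. The M10 genes are known for expression with pheromone receptors in the vomeronasal organ.

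Of class II, H2-Aa, H2-Ab1 and H2-Eb1 had all 7 of their probes above background on every array, while H2-Ea-ps and H2-Eb2, with 3 probes, had none. H2-DMa and H2-DMb1, the chains of the peptide exchange factor H2-DM, were detected on every array, and H2-DMb2 and H2-Ob on none. H2-Oa, a chain of H2-O, which restrains H2-DM, was above background with 1 of its probes on 1 array. As a share of probes, 54.8% of H2 probes and 66.8% of all probes on the array were above background on all 6 arrays.

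**Figure D1:**
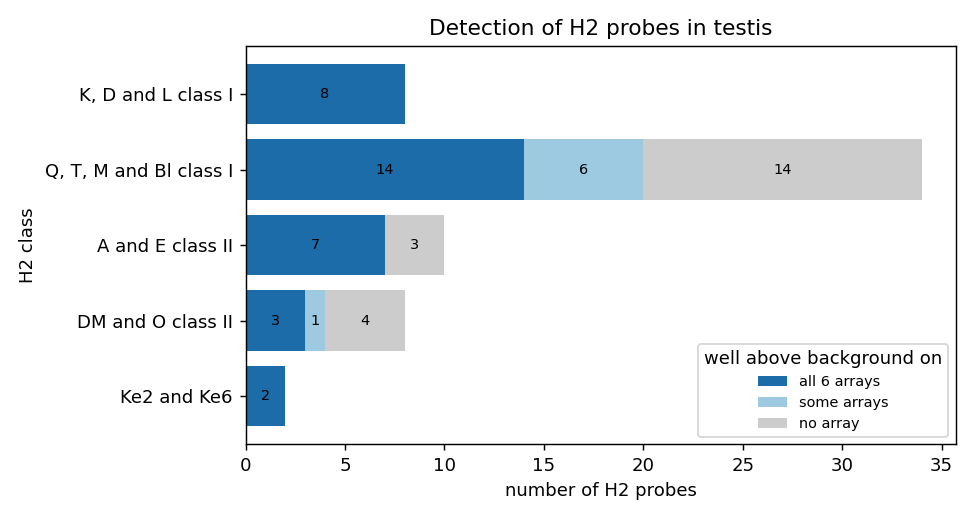
The bars give the number of H2 probes in each class that were well above background on all 6 arrays, on some of them or on none. The 8 probes of the K, D and L genes are all in the first category, and the Q, T, M and Bl genes split into 14 probes on all arrays, 6 on some and 14 on none.

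Singly detected spots were few. H2-T3, the thymus leukaemia antigen gene of the T region, read 7.15 on the wt replicate 2 array, its only array above background, against 2.78 and 2.86 on the other wt arrays and 2.73, 4.16 and 3.88 in Prss55-/- testis. One of the H2-M3 probes was likewise above background only on that array, where it read 5.12. Neither was tested: a probe entered the comparison when the 3 arrays of 1 genotype or the other all had it above background.

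For 38 of the 62 probes, from 23 genes, Prss55-/- and wt testis could be compared. None passed the limma adjusted p threshold of 0.05, against 1.21% of all tested probes. At an unadjusted p below 0.05, 4 H2 probes were higher in Prss55-/- testis and 4 lower, of 38, where 9.82% and 9.29% of all tested probes were. The methods' test on the same values called none after adjustment and 7 before it. The thresholds of the study, which combine an unadjusted p of 0.05 with a 2-fold change, were passed by 2 H2 probes, both of H2-Bl, against 0.612% of all tested probes. Signals of the genotypes did not overlap for 3 H2 probes with Prss55-/- higher and for 7 with Prss55-/- lower, against 13.4% and 12.9% of all tested probes. The median log2 difference was -0.028 over the 38 probes and 0.002 over all tested probes. Of the 38, 3 entered through Prss55-/- alone (H2-Bl, H2-M10.2 and H2-Q1) and 1 through wt alone (H2-T22), so the counts describe the probes that passed the detection filter and not all members.

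**Figure D2:**
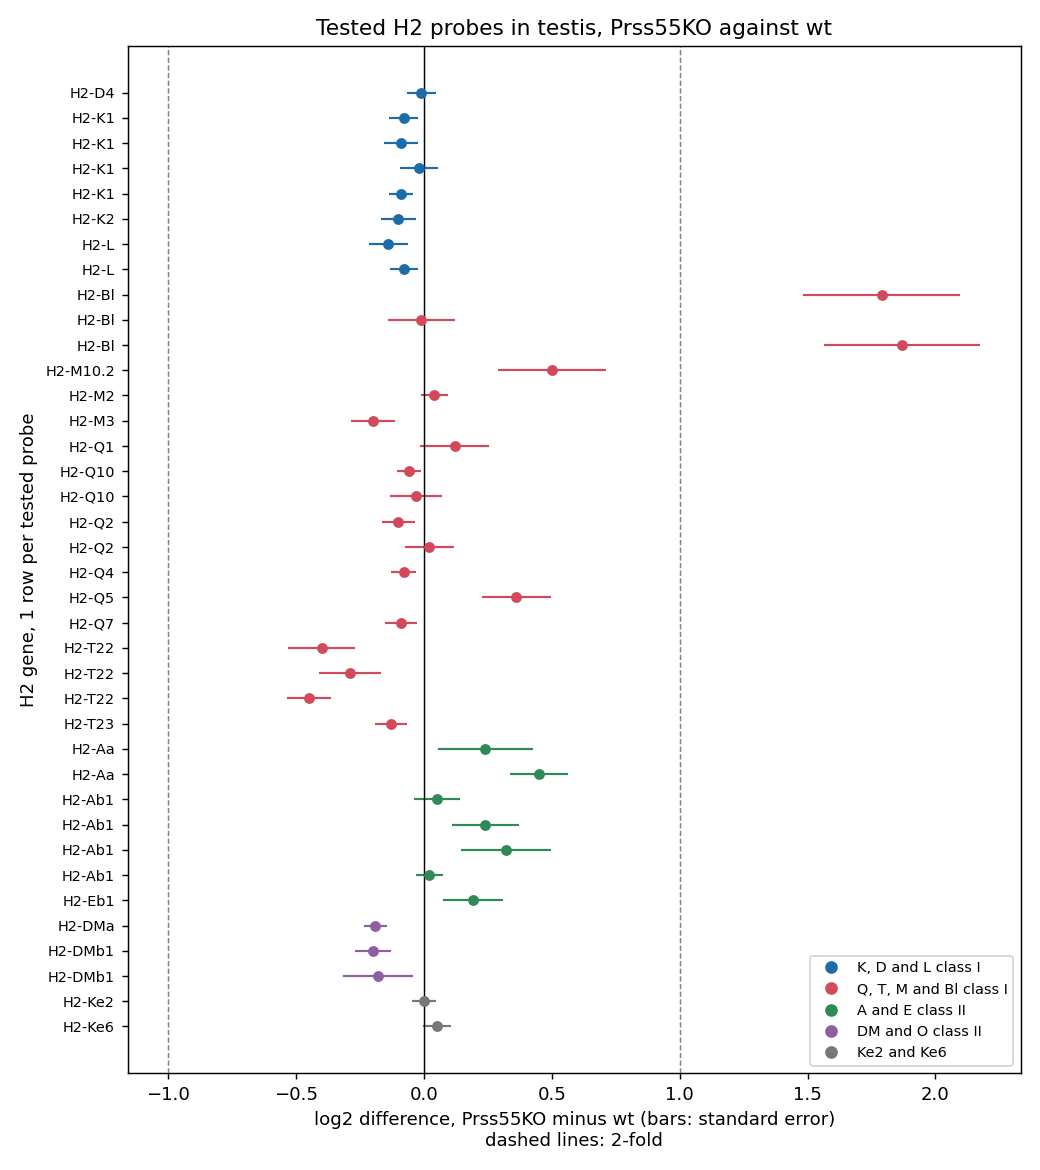
Each point is the log2 difference of 1 tested H2 probe, Prss55-/- minus wt, with its standard error, and colour marks the class. Both overlapping H2-Bl probes lie beyond 2-fold at 1.79 and 1.87, and the other 36 probes lie between -0.45 and 0.50.

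The largest measured difference among the tested H2 probes was that of H2-Bl, a class I gene of the T region named from the blastocyst and listed in RefSeq as a transcribed pseudogene. The array carries 3 probes for it. Of these, 2 overlap by 30 bases, at chr17:36217119-36217148 of build mm9 on the minus strand, and are annotated to the same Ensembl transcript, so they are not independent readings. The stretch that both hold is shown because these are the probes with the difference.

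H2-Bl, both overlapping probes: gctcaaatctttgagctgagggttgattag

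The first overlapping probe read 8.21, 7.52 and 7.26 in Prss55-/- testis and 5.63, 5.63 and 6.38 in wt testis. Every Prss55-/- array was above every wt array, and Prss55-/- replicate 1 was the highest. The log2 difference was 1.79 (SE 0.307), or 3.46-fold, with a limma adjusted p of 0.0608. The second overlapping probe read 7.36, 6.50 and 6.44 against 4.68, 4.67 and 5.34, where wt replicate 3 alone was well above background among the wt arrays, and it was tested only because all Prss55-/- arrays were. Its measured log2 difference, in which 2 of 3 wt readings are not well above background, was 1.87 (SE 0.304), or 3.65-fold, with a limma adjusted p of 0.0545. Neither passed the adjusted threshold. The second passed when arrays were scaled to their 75th percentile (limma adjusted p = 0.0485) and without Prss55-/- replicate 1 (1.57, limma adjusted p = 0.0363). Both passed after normexp background correction (0.0352 and 0.0484), where the differences shrank to 1.07 and 0.78. In the other settings tried neither passed. With the replicate number as a block, limma adjusted p was 0.197 for the first probe and 0.179 for the second. Without wt replicate 1 it was 0.21 and 0.193, and the methods' test gave an adjusted p of 0.173 and 0.163. The values of the second probe are given as a description, since it entered the comparison through the group where it is high. H2-Bl was among the genes that the study itself listed from these same arrays, which is no independent evidence of its direction.

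The third H2-Bl probe did not show this. It read 6.54, 6.30 and 6.24 in Prss55-/- testis and 6.31, 6.19 and 6.61 in wt testis, with the genotypes overlapping, and its log2 difference was -0.01 (SE 0.131, limma adjusted p = 0.966). The difference between the third and the first probe was tested itself, as the further probe minus the probe with the highest mean signal of the gene on each array. It was -1.80 (SE 0.193, limma adjusted p = 0.0328 over 9394 probe pairs of all genes), and with each array left out in turn it ranged from -1.94 to -1.62, with an adjusted p above 0.05 in 4 of the 6 cases. The third probe lies 3.26 kb from the other 2, spans 247 bp of the genome with 187 bp skipped inside it, as a probe across a splice junction would, and is annotated to a RefSeq transcript rather than the Ensembl one. It is also close in sequence to a probe of H2-K1, with 46 of 59 aligned bases the same (capitals). The second overlapping probe is in turn close to an H2-Q10 probe that was above background on no array, with 39 of 47 aligned bases the same. Which transcripts each probe bound was not tested.

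H2-Bl, the third probe: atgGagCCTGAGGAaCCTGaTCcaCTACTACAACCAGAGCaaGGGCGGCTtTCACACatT
H2-K1, probe at chr17:34136478-34136724: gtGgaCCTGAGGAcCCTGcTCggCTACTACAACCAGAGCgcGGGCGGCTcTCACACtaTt

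**Figure D3:**
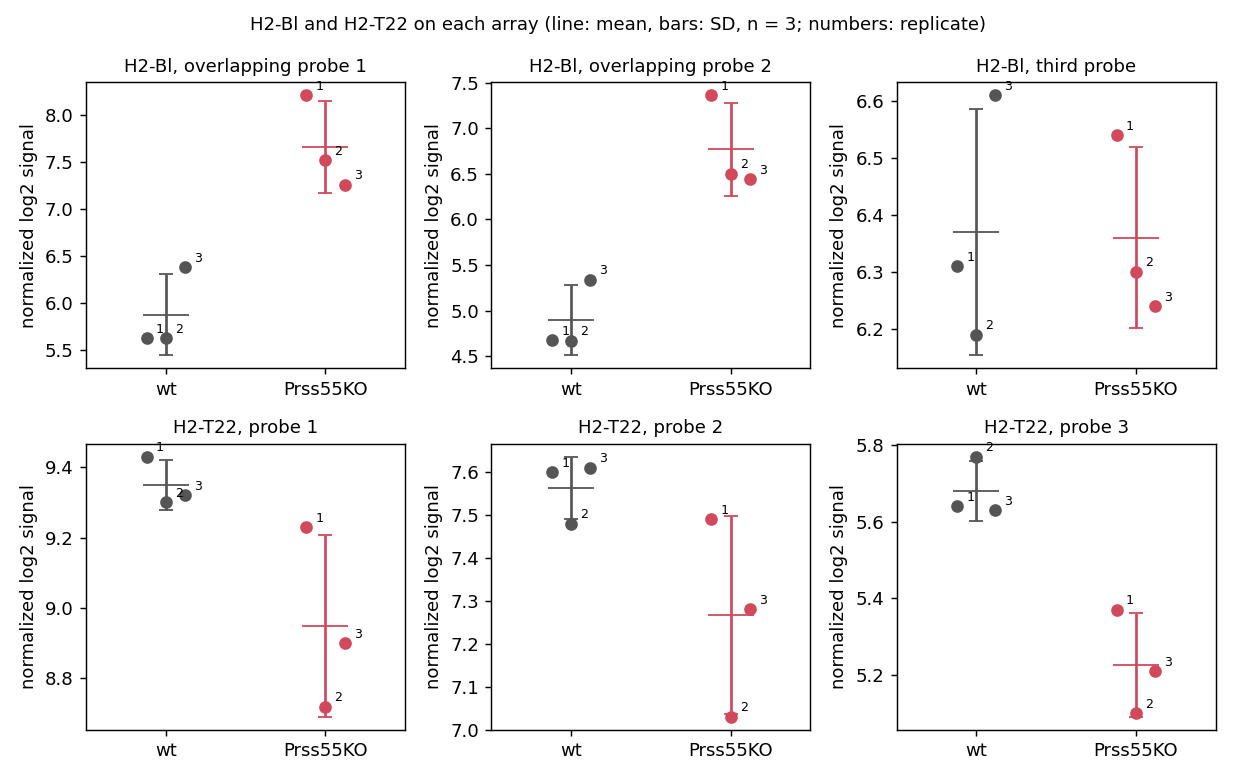
Normalized log2 signal of the 3 H2-Bl and 3 H2-T22 probes on each array, with the mean and SD of each genotype (n = 3) and the replicate number beside each point. The genotypes separate on both overlapping H2-Bl probes and overlap on the third, and on the H2-T22 probes Prss55-/- replicate 1 lies nearest to the wt arrays.

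No tested probe near H2-Bl passed the adjusted threshold. Within 100 kb on either side, 12 probes were tested, 5 of them of genes other than H2. Those 5, of Gnl1, Gm11127, C920025E04Rik and 2410017I17Rik, had log2 differences from -0.10 to 0.21 and a lowest limma adjusted p of 0.294. H2-T22, which ends 38.6 kb away, had log2 differences below 0 on the same arrays, as given next.

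**Figure D4:**
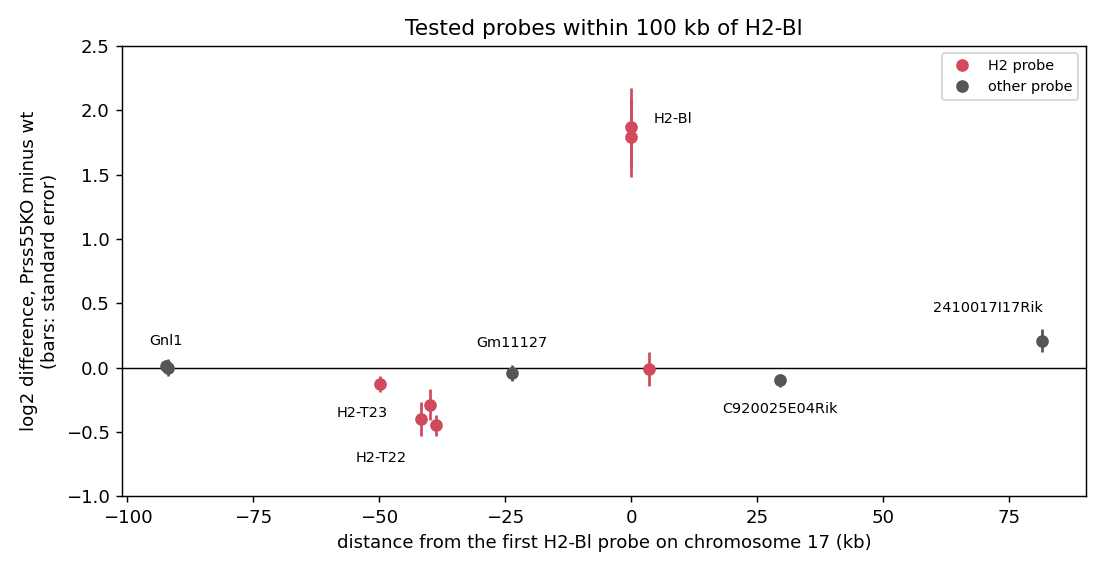
Log2 difference, with its standard error, of every tested probe within 100 kb of H2-Bl, by distance along chromosome 17 from its first probe. The 2 overlapping H2-Bl probes at 1.79 and 1.87 stand alone, with the third H2-Bl probe at -0.01 and the H2-T22 probes between -0.45 and -0.29.

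H2-T22 encodes a non-classical class I molecule that is known as a ligand of gamma delta T cells and binds no peptide. All 3 of its probes were lower on average in Prss55-/- testis, and none passed the adjusted threshold. The probe with the highest mean signal read 9.23, 8.72 and 8.90 against 9.43, 9.30 and 9.32 in wt, a log2 difference of -0.40 (SE 0.131, limma adjusted p = 0.189). The second read 7.49, 7.03 and 7.28 against 7.60, 7.48 and 7.61, a difference of -0.29 (SE 0.121, limma adjusted p = 0.262). In both, Prss55-/- replicate 1 was close to the wt arrays and the other two Prss55-/- arrays were below them all. The third read 5.37, 5.10 and 5.21 against 5.64, 5.77 and 5.63, a difference of -0.45 (SE 0.0842, limma adjusted p = 0.0705), and its Prss55-/- replicates were well above background on 2 of 3 arrays. Without Prss55-/- replicate 1, the first and the third gave -0.54 (limma adjusted p = 0.0411) and -0.52 (0.0333), in a setting that called 857 probes over all. With any other array left out neither passed. The limma adjusted p was then 0.224 to 0.422 for the first probe and 0.0854 to 0.255 for the third.

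None of the other named genes of the non-classical group passed the adjusted threshold. H2-T23, which encodes Qa-1, the ligand of inhibitory receptors on natural killer cells, read 10.92, 10.81 and 10.77 against 10.97, 11.03 and 10.90, a log2 difference of -0.13 (SE 0.0629, limma adjusted p = 0.312). H2-M3, which presents formylated peptides, read 7.31, 6.98 and 7.13 against 7.34, 7.34 and 7.33, a difference of -0.20 (SE 0.087, limma adjusted p = 0.291), with every Prss55-/- array below wt. H2-Q5, a pseudogene in RefSeq, read 8.65, 8.48 and 8.45 against 7.99, 8.46 and 8.05, a difference of 0.36 (SE 0.135, limma adjusted p = 0.229) in which wt replicate 2 overlapped the Prss55-/- arrays. H2-M10.2 read 5.26, 5.55 and 5.46 against 4.52, 4.90 and 5.35 (0.50, SE 0.211, limma adjusted p = 0.271). It too was tested only through Prss55-/-, with 1 of 3 wt arrays well above background. Over the 12 genes of this group with a tested probe, taking 1 probe each, the median log2 difference was -0.069, with 5 above 0 and 7 below.

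The K, D and L group holds, by the names on the array, H2-K1 and H2-L, genes of classical class I heavy chains, which are found on most nucleated cells. It also holds H2-K2 and H2-D4, both transcribed pseudogenes in RefSeq. The H2-L probes were matched to no gene symbol in RefSeq, and which gene they read was not tested. The 8 probes of the group all had log2 differences below 0 but small ones, from -0.14 to -0.01, and none had an unadjusted p below 0.05. The H2-K1 probe that is spotted 10 times read 13.80, 13.78 and 13.82 in Prss55-/- testis and 13.97, 13.93 and 13.77 in wt, a difference of -0.09 (SE 0.0655, limma adjusted p = 0.517), and wt replicate 3 lay below all Prss55-/- arrays. The 3 further H2-K1 probes gave -0.09, -0.08 and -0.02. H2-L gave -0.14 and -0.08, H2-K2 -0.10 and H2-D4 -0.01. Over the 4 genes with 1 probe each the median was -0.093. The probes were read on the same 6 arrays, so the common sign is not that many separate readings.

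The A and E genes of class II differed in the opposite direction from the K, D and L genes, by amounts that did not pass the test. All 7 probes had log2 differences above 0, from 0.02 to 0.45, with a median of 0.238 over the probes and 0.189 over the 3 genes with 1 probe each. None passed the adjusted threshold, and 1 had an unadjusted p below 0.05. That probe, of H2-Aa, the alpha chain of I-A, read 7.24, 7.51 and 7.58 in Prss55-/- testis and 6.89, 7.14 and 6.93 in wt, a difference of 0.45 (SE 0.112, limma adjusted p = 0.116) with no overlap. The other H2-Aa probe read 6.23, 6.75 and 6.84 against 6.28, 6.60 and 6.23, a difference of 0.24 (SE 0.185, limma adjusted p = 0.518) with overlap.

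H2-Ab1, the beta chain of I-A, has 4 probes. The one with the highest mean signal read 11.53, 11.63 and 11.62 against 11.52, 11.60 and 11.59 (0.02, SE 0.0526, limma adjusted p = 0.83). The probe spotted 10 times read 9.02, 9.27 and 9.26 against 9.08, 9.25 and 9.06, a difference of 0.05, and the remaining 2 gave 0.24 and 0.32. H2-Eb1, the beta chain of I-E, read 8.12, 8.46 and 8.48 against 8.09, 8.31 and 8.10 (0.19, SE 0.117, limma adjusted p = 0.426). The genotypes overlapped for each of these 5 probes.

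The 7 probes followed a similar order over the arrays. Prss55-/- replicate 3 was the highest array for 5 of them and replicate 2 for the other 2, while wt replicate 1 was the lowest for 5. Cd74, the invariant chain that accompanies class II molecules to the endosome, read 10.69, 11.14 and 11.22 against 10.77, 11.04 and 10.57, a log2 difference of 0.22 (SE 0.179), with replicates 2 and 3 of Prss55-/- highest as well. More cells of a type and more RNA per cell cannot be told apart in whole testis.

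**Figure D5:**
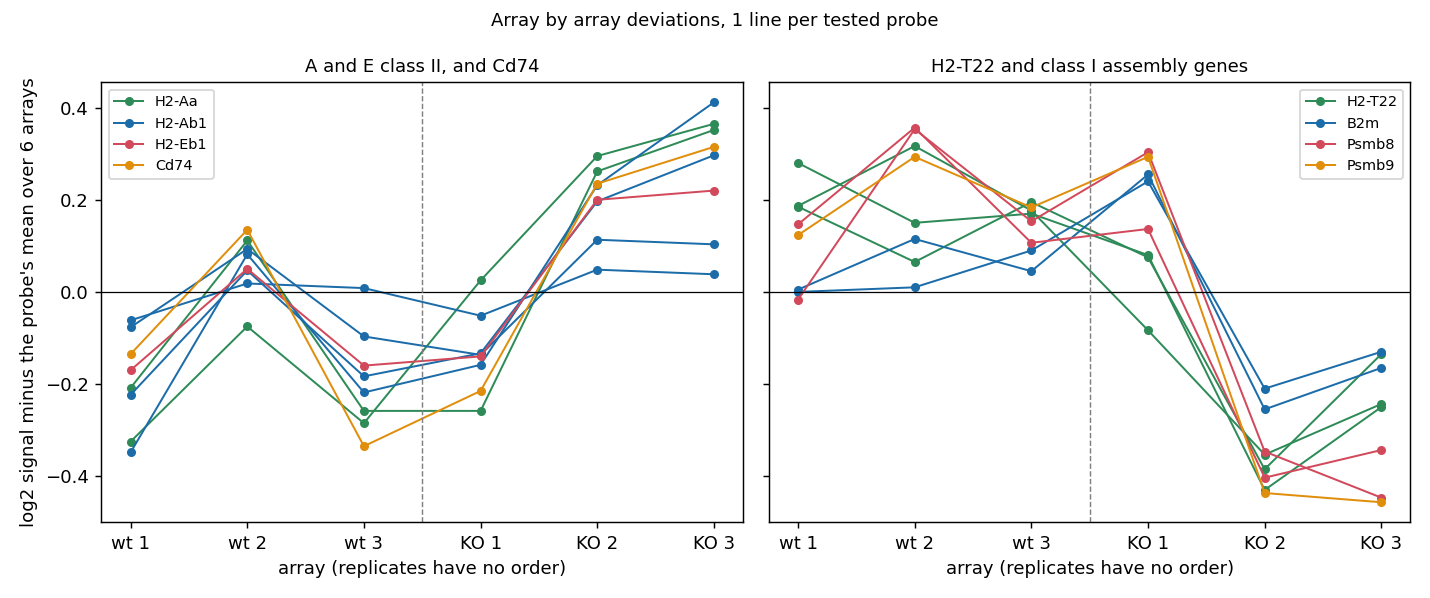
Deviation of each tested probe from its own mean over the 6 arrays, in log2 units, with 1 line per probe, for A and E class II genes with Cd74 (left) and for H2-T22, B2m, Psmb8 and Psmb9 (right). On the left Prss55-/- replicates 2 and 3 lie above 0 for every probe and replicate 1 lies near or below it, and on the right replicates 2 and 3 lie below 0 for every probe.

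The DM genes had small log2 differences below 0, none past the adjusted threshold. H2-DMa read 9.05, 9.03 and 9.06 against 9.21, 9.28 and 9.23, with every Prss55-/- array below every wt array, a log2 difference of -0.19 (SE 0.0446, unadjusted p = 0.00449, limma adjusted p = 0.101). H2-DMb1 read 11.90, 11.84 and 11.75 against 12.13, 12.03 and 11.93, again without overlap, a difference of -0.20 (SE 0.0704, limma adjusted p = 0.203). Its other probe read 5.77, 6.31 and 5.94 against 6.16, 6.17 and 6.24, a difference of -0.18 (SE 0.135) with overlap. H2-Ke6 read 10.35, 10.24 and 10.33 against 10.30, 10.19 and 10.28 (0.05, SE 0.0557, limma adjusted p = 0.666), and H2-Ke2 had a difference of 0.00.

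Probe agreement could be examined for the 9 H2 genes with 2 or more tested probes, which gave 15 pairs of a further probe with the probe of the highest mean signal. One pair passed the limma adjusted threshold, that of the third H2-Bl probe, against 0.298% of 9394 pairs of all genes. The lowest limma adjusted p of the other 14 was 0.433, for the H2-Aa pair. Apart from H2-Bl, where the probes were 1.88 apart, the log2 differences of a gene's probes lay at most 0.30 apart, in H2-Ab1, and 0.06 apart for the 4 H2-K1 probes. Probes that agree in the difference can still disagree in detection: H2-Q10, a gene known for secretion of its product by the liver, had 2 probes above background on all arrays and 3 on none. One of the detected H2-Q10 probes read 11.33, 11.26 and 11.28 against 11.38, 11.36 and 11.32 (-0.06, SE 0.047, limma adjusted p = 0.514), and the other had a difference of -0.03.

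The 4 H2 probes spotted 10 times on each array, of H2-K1, H2-Ab1, H2-M2 and H2-Q7, also gave the spread of spots within an array. The SD over the 10 spots was between 0.0187 and 0.077 log2 units on any array. The SD between arrays was 0.139 in Prss55-/- and 0.101 in wt testis for H2-Ab1, above its spot SDs of at most 0.0741. It was 0.0213 and 0.108 for H2-K1, 0.0433 and 0.0539 for H2-M2, and 0.0842 and 0.0478 for H2-Q7. These are SDs of means over 10 spots, while the spot SDs are of single spots. A value at or below a spot SD therefore does not show that mice differed no more than spots.

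Several class I probes are close in sequence to a probe of another H2 gene, so a reading may not belong to the named gene alone. Of 1854 pairs of probes from different H2 genes, 8 were at least 75% identical over 45 or more aligned bases, all 8 between class I genes and none with a class II probe. The closest pair was H2-Q2 with H2-L, with 47 of 50 aligned bases the same, followed by H2-T23 with H2-Q7, with 50 of 59. They are shown because the 4 genes are all called detected here, with capitals where the 2 probes of a pair have the same base.

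H2-Q2, probe at chr17:35482113-35482172: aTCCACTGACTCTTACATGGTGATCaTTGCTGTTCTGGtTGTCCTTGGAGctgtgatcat
H2-L, probe at chr17:35403132-35403191: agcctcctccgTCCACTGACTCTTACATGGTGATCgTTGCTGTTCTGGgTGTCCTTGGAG
H2-T23, probe at chr17:36167338-36167574: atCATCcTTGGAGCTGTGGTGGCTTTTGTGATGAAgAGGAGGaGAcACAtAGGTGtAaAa
H2-Q7, probe at chr17:35579687-35579918: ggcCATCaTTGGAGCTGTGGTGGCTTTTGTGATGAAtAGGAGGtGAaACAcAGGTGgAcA

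The log2 differences of these 4 were -0.10 for H2-Q2, -0.08 for H2-L, -0.13 for H2-T23 and -0.09 for H2-Q7, and how much of each signal came from the related gene was not tested.

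The genes that serve class I molecules were tested beside them. Of 15 genes for beta-2-microglobulin, the peptide transporter, the immunoproteasome and the loading complex, 13 had a tested probe, none passed the adjusted threshold, and the median log2 difference was -0.012. The 2 B2m probes in use gave -0.11 and -0.07, the probe with the highest mean signal reading 12.60, 12.09 and 12.18 against 12.35, 12.46 and 12.39. The immunoproteasome subunit Psmb9 read 8.11, 7.38 and 7.36 against 7.94, 8.11 and 8.00 (-0.40, SE 0.206). Psmb8 gave -0.40 and -0.33 with its 2 probes. On each of these B2m, Psmb8 and Psmb9 probes, Prss55-/- replicate 1 lay within or above the wt range, and replicates 2 and 3 lay below all wt arrays. Tapbpl, a relative of tapasin that edits peptides, read 9.40, 9.39 and 9.54 against 8.99, 9.23 and 8.97 (0.38, SE 0.0876, limma adjusted p = 0.101), without overlap. Nlrc5, the activator of class I genes, gave 0.17 (SE 0.175). Tap1 was above background on no array and Tap2 on 1.

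Of 8 genes that serve class II, 7 had a tested probe and none passed, with a median of 0.068. Their summed signal ran from 12600 to 13100 in Prss55-/- and from 11700 to 12400 in wt testis, of which 30.8% was Rfxap. Without Rfxap the sums overlapped, from 8620 to 9230 and from 7990 to 8710. The activator Ciita was above background on 1 array of each genotype and was not tested. Of 24 interferon response genes, 18 had a tested probe and none passed. Their median log2 difference was -0.167, with 16 below 0 and 2 above. Where 9.82% of all tested probes were higher and 9.29% lower at an unadjusted p below 0.05, 1 of these genes was higher and 3 were lower. Their summed signal was 8010 on Prss55-/- replicate 1, 6170 and 6510 on replicates 2 and 3, and 7630 to 7980 in wt, so replicates 2 and 3 were again the lowest arrays.

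Markers of other cell types were compared over the same arrays, and no list had a gene past the adjusted threshold. Of the 12 macrophage markers with a tested probe, 11 had a log2 difference below 0 and the median was -0.138. Their summed signal ran from 131000 to 146000 in Prss55-/- and from 129000 to 146000 in wt testis, but 86.1% of it was Aif1. Without Aif1, it ran from 15900 to 20100 and from 16900 to 21700. The dendritic cell markers (3 of 5 tested) had sums from 537 to 559 and from 553 to 638, with Flt3, Zbtb46 and Xcr1 above background on all 6 arrays and Cd209a on none. The B cell markers (3 of 4 tested) had sums from 324 to 346 and from 310 to 345. The T cell markers (4 of 5 tested) had sums from 2680 to 3400 and from 3390 to 3750, of which 92.8% was Cd3d, and Cd8a was above background on no array. The Sertoli cell markers (4 of 4 tested) had sums from 27800 to 29100 and from 25900 to 26800, of which 48.8% was Rhox5. Without Rhox5 the sums overlapped, from 14000 to 14100 and from 13800 to 14300.

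The markers of Leydig cells, which make testosterone in the interstitium, had a median log2 difference of -0.497, none past the adjusted threshold. Their sum was 35200 on Prss55-/- replicate 1 and 21300 and 23400 on replicates 2 and 3, against 30300 to 37200 in wt, so replicates 2 and 3 were the lowest of the 6 arrays, as for H2-T22 and Psmb9. Of this sum, 63.1% was Cyp17a1, and the Leydig cell hormone Insl3 ran the other way, at 10.41 on Prss55-/- replicate 1 and 10.92 and 10.97 on replicates 2 and 3 with its probe of the highest mean signal. The epididymal genes Lcn5, Lcn8 and Adam7 were above background on no array. The part of any of these in the H2 values was not tested.

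The files place 58 H2 probes on chromosome 17 of mm9, over 3.54 Mb, and 4 nowhere. Between them lie 141 tested probes of 99 genes with a symbol that are not H2. Of these 141, 1 was higher and 1 lower past the limma adjusted threshold, a share near the 1.21% of all tested probes, and their median log2 difference was -0.01. Psors1c2, named for the psoriasis susceptibility region, read 9.27, 9.20 and 9.15 in Prss55-/- testis and 8.60, 8.68 and 8.64 in wt, a difference of 0.57 (SE 0.0514, limma adjusted p = 0.0104). D17H6S56E-5 read 5.07, 5.17 and 5.15 against 5.71, 5.88 and 5.62, a difference of -0.61 (SE 0.0786, limma adjusted p = 0.0324). Both were separated by genotype on every array, but neither reached 2-fold.

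The promoters of H2 genes share short elements that the choice of members did not use. RefSeq promoters of GRCm38.p6, from 250 bases before to 50 after the start, were matched for 29 of the 39 genes and searched on both strands for 3 runs of letters chosen from what is known of MHC promoters. The letters CTGATTGG, the Y box bound by NF-Y, were found in 15 of 29 H2 genes and in 4.7% of 27025 genes. They were in all 3 matched A and E class II genes, in 10 of 18 Q, T and M class I genes, in H2-K1 and, of 5 DM and O genes, in H2-Oa. The letters GGGGATTCC, of the NF-kappaB-binding enhancer A, were in H2-K1 and H2-Q7 and in 0.296% of all genes. The letters TTTCACTTC, as in interferon-stimulated elements, were in H2-K1, H2-M3, H2-Q4, H2-Q7 and H2-Q10 and in 0.596% of all genes. Matches of different motifs overlapped in 0 of these promoters, and related genes are not independent instances. The Y box was also in undetected genes such as H2-Eb2 and H2-M1, and in H2-K1, H2-Q7 and H2-T23, whose log2 differences were below 0. Any link between a motif and the signals was not tested. The 200 bases before the start are shown for H2-K1, where enhancer A and the interferon element stand close together. They are also shown for H2-Aa and H2-Eb1, which have the Y box (motifs in capitals, GRCm38.p6). The Y box match of H2-K1 lies outside the printed bases, and a further promoter entry of H2-K1 is not shown.

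H2-K1, chr17:34000348-34000547, minus strand: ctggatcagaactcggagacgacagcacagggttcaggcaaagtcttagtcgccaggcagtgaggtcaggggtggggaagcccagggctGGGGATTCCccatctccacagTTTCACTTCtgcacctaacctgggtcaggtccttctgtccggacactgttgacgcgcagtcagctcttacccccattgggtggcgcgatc
H2-Aa, chr17:34287824-34288023, minus strand: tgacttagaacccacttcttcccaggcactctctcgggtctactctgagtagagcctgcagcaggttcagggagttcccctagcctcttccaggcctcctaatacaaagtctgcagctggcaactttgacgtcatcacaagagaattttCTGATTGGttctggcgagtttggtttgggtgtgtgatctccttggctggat
H2-Eb1, chr17:34305667-34305866, plus strand: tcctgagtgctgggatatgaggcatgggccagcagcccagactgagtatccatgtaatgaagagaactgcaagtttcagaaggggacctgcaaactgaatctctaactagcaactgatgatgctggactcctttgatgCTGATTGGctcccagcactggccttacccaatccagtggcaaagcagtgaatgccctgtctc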

How the data were processed

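The authors scanned each array with Agilent Feature Extraction 10.7, per the labels. The column used here is the processed signal, a linear intensity from which the authors' scanner software had taken off the background, deposited without any scaling from array to array. A table of log2 values that the authors deposited, quantile-normalized per their methods, served as an alternative. Positions are those of the file headers' build (mm9).

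Control and outlier spots were left out, and signals below 1 were raised to 1. After quantile normalization of the log2 values, repeated spots of a probe were averaged. A probe entered the comparison when most of its spots were well above background on each of the 3 arrays of either genotype (28615 probes, 2 missing values). The comparison of Prss55-/- with wt used lmFit and eBayes of limma 3.58.1 (R 4.3.3). P-values are two-sided and were adjusted by Benjamini and Hochberg's method over all tested probes. Probe pairs were fitted the same way. The script was tested on simulated data. Replicates are separate mice per the study's methods, and the number of arrays limits the precision.

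Where a gene has several tested probes, the one with the highest mean signal stands for it in gene counts. Values on every array are given for H2 probes past either threshold, for H2-K1, H2-M3, H2-T23, H2-Q10, H2-Aa, H2-Ab1, H2-Eb1, H2-DMa and H2-Ke6, and for genes whose probes disagree. H2-T22, H2-Q5, H2-DMb1, H2-M10.2, H2-T3 and Tapbpl were added after their values were seen, as were the promoter motifs. The members and lists were chosen with earlier results of these data known. Alternatives covered normalization, background correction, the deposited values, detection filter, test, blocks and left-out arrays. Python 3.11.15 with pandas 2.3.3, numpy 2.4.6 and scipy 1.17.1 made the tables, and matplotlib 3.10.9 drew the plots.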

Additional observations from a re-analysis of the deposited data

How the results depend on the processing

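The count of H2 probes past the limma adjusted threshold, 0 with the settings as reported, became 1 with 75th percentile scaling and 2 with normexp, all of H2-Bl, and ranged from 0 to 3 when an array was left out, the 3 being without Prss55-/- replicate 1. The count past an unadjusted p and 2-fold, 2, fell to 1 with normexp and to 1 when probes had to be above background on all 6 arrays, and stayed at 2 under every left-out array. The count past the unadjusted p alone, 8, ranged from 5 to 15 over left-out arrays. The disagreeing H2-Bl pair, 1 as reported, became 0 with the replicate number as a block (replicate block, -1.80, adjusted p = 0.216) and ranged from 0 to 1 over left-out arrays: leaving out Prss55-/- replicate 2 gave an adjusted p of 0.137, Prss55-/- replicate 3 gave 0.101, wt replicate 1 gave 0.142 and wt replicate 2 gave 0.149. Prss55 ranged from -0.96 to -0.84 over left-out arrays and lost its call when Prss55-/- replicate 2 (0.0596), Prss55-/- replicate 3 (0.0699) or wt replicate 1 (0.0628) was dropped. Over all probes the 345 calls became 13 with the replicate block, 140 with no filter on dim probes and 87 with the methods' test, and ranged from 38 to 857 over left-out arrays. Deviations of arrays with the same number correlated at -0.054, -0.022 and -0.112, and those of the other combinations between -0.058 and 0.11. Deviations from means of 3 arrays cannot settle whether the mice were paired. The paper speaks of 3 pairs of mice, while the fit reported here is unpaired. No H2 probe was called with the replicate block. No direction changed for the H2-Bl, H2-T22, H2-Aa, H2-Eb1, H2-DMa, H2-DMb1 and H2-Q5 probes tried. These had 14 alternatives each, or 13 for the 2 probes not above background on all arrays. The class medians were tried only with all tested probes of a class and with 75th percentile scaling. No class median changed sign, and that of the A and E class II genes went from 0.189 to 0.238 and 0.214. How far the medians depend on single arrays was not tested. With slide as a random block, the H2 count was 0 and 287 probes were called over all. Dim probes such as the second of H2-Bl are limited by signal over background.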
